A study of Mus musculus with 4 samples.

Results

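Among the cells of the mouse aortic arch was a small population of macrophages that carried Cx3cr1 or Trem2 transcripts and no Lyve1 transcript. Its cells were chosen by transcript counts within the barcodes that held 200 to 6000 genes and at most 15% mitochondrial unique molecular identifiers (UMIs). A cell belonged to it when it held at least 1 UMI of Csf1r, at least 2 of Cx3cr1 and Trem2 together and at least 20 of C1qa, C1qb and C1qc together. It also had to hold no UMI of Lyve1, Acp5, Flt3 or Pdgfra and at most 2 each of Lyz1 and Myh11. In all, 107 of 14148 kept cells met the rule. Because measured values chose these cells, what they hold is given below as a description, with no test against other cells.

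Single-cell RNA sequencing covered 4 libraries, each a pool of aortic arches with their main branches and perivascular tissue from male mice. The standard-diet (normocholesterolemic) Nrf2flox/flox and Nrf2Cdh5tKO libraries pooled 4 mice each, which were also 3 months old at the start and had received saline. The high-fat (atherosclerotic) Nrf2flox/flox and Nrf2Cdh5tKO libraries pooled 3 mice each, which from 3 months of age had 21 weeks of high-fat diet after a single injection of an AAV8 vector. All mice carried floxed Nfe2l2, the gene of the transcription factor Nrf2, and the Nrf2Cdh5tKO label stands for its excision by a Cre recombinase under the Cdh5 promoter, which serves endothelial cells and is also active in part of the blood lineage. Since every condition is represented by 1 pool, differences between conditions could not be set against a spread between replicates and were not tested. Wherever 4 values follow each other, their order is standard-diet Nrf2flox/flox, standard-diet Nrf2Cdh5tKO, high-fat Nrf2flox/flox and high-fat Nrf2Cdh5tKO.

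The 4 libraries held 8512, 3460, 1160 and 2467 barcodes, of which 7890, 2972, 1020 and 2266 were kept. The macrophages described here numbered 51, 24, 7 and 25, with 571237, 246693, 71346 and 247115 UMIs in sum. Their median depth was 10209, 9367.5, 9586 and 8327 UMIs per cell, below the 12133, 14152.5, 10963 and 9200.5 of all kept cells. Levels are given as CPM, the UMIs of a gene per 1000000 UMIs summed over a population in 1 library. The intervals of shares are exact Clopper-Pearson intervals, those of levels exact Poisson intervals and those of ratios between libraries exact binomial ones. All are 95% intervals that cover counting error only.

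The high-fat Nrf2flox/flox library, with its 7 cells, needs a caution before its values are read. A single cell there held all 92 UMIs of the T cell markers (such as Cd3e, Cd3d, Trac and Trbc1) and all 15 UMIs of thymocyte markers such as Rag1. This cell also held 21079 UMIs, 29.5% of the library's 71346, and was not among the 306 cells that Scrublet, a doublet caller, marked. Scrublet marked 2 of the 107 cells. Several values of that library are therefore given also without this cell. Over all pairs of libraries 32 cell barcodes were shared, of which 1 belonged to a cell described here.

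The targeted gene was read first, by label. Nfe2l2 (ENSMUSG00000015839, GRCm38 chr2:75675513-75704641, minus strand) stood at 592, 519, 701 and 486 CPM in the macrophages, with intervals from 530 to 658, 433 to 617, 520 to 924 and 403 to 581. In endothelial cells, gated by Cdh5 and Pecam1 and numbering 66, 39, 20 and 21, it stood at 160, 316, 191 and 344 CPM. Endothelial Nfe2l2 was thus higher in both libraries labelled Nrf2Cdh5tKO than in the flox libraries, while in the macrophages its log2 ratio by label was −0.19 (95% counting interval −0.49 to 0.11) on the standard and −0.53 (−1.02 to −0.02) on the high-fat diet, where it was −0.64 without the cell with T cell markers. The deletion removes 1 exon. These 3′ libraries read transcripts near their end, but counts per gene do not show which exons were read. Whether these levels fit the label was not tested. The genotype is therefore named below only as a label. Cdh5 itself had 0 UMIs in all 107 cells.

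Tissue macrophages clear dead cells, lipid and debris and answer injury with cytokines and chemokines. In the arterial wall, Lyve1-positive macrophages of the adventitia are known as long-lived residents, while others lie in the intima and take up lipoprotein. CX3CR1 is the receptor of the chemokine fractalkine, found on monocytes and several resident macrophages, and TREM2 is a lipid-sensing receptor that signals through the adaptor TYROBP and is known from microglia and from foamy cells of plaques.

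The promoters of 4 of the 6 genes that give these cells their name, the 2 of the rule and 2 that were higher than in the other cells, are shown to set their sequence beside their expression, as the 250 bases before the transcription start in RefSeq (GRCm38.p6), written 5′ to 3′ on the gene's strand. Capitals mark matches to an AP-1 motif (TGANTCA) or to the kappaB motif, both searched on both strands. They lie at chr9:120068297-120068546 (minus strand) for Cx3cr1, chr17:48346151-48346400 (plus) for Trem2, chr11:82101595-82101844 (plus) for Ccl12 and chr2:164443189-164443438 (minus) for Sdc4.
Cx3cr1: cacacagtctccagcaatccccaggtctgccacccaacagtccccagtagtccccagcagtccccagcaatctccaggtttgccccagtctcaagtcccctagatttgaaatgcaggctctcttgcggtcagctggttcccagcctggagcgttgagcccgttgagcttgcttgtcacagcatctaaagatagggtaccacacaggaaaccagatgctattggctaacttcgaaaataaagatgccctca
Trem2: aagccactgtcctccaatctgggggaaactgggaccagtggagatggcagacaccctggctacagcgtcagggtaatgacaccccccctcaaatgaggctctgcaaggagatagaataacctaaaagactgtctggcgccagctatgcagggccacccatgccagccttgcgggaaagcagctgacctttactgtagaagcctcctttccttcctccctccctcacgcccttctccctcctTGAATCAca
Ccl12: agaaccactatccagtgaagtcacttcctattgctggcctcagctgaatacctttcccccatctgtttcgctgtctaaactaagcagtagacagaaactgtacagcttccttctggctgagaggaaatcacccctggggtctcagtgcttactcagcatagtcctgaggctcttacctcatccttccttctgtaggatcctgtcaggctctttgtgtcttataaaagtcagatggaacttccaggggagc
Sdc4: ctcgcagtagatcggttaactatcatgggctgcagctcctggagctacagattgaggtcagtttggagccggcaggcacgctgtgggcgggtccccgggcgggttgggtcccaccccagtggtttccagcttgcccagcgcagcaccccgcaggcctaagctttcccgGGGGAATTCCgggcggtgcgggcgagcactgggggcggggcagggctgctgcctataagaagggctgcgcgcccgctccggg
The Trem2 promoter held TGAATCA 9 bases before the start, a nearly palindromic site that also matched on the other strand at the same place. The Sdc4 promoter held the kappaB match GGGGAATTCC, beginning 82 bases before the start. The Ccl12 promoter held TATAAA 31 bases before the start, in lower case above, and the Cx3cr1 promoter held none of the 3 motifs. Of all 32851 promoters of this length, 3.90% held a kappaB match, 6.75% an AP-1 match and 12.4% TATAAA. A match describes the sequence and is not evidence of binding. The gene spans below are those of GENCODE, whose starts differ from the RefSeq start for Cx3cr1 and Sdc4.

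The cells carried general macrophage transcripts in every library. Adgre1, which encodes the surface protein F4/80, stood at 289, 324, 392 and 255 CPM, and Cd68, which encodes a lysosomal membrane protein, at 501, 466, 561 and 453 CPM. The Fc receptor gene Fcgr1 stood at 117, 247, 182 and 158 CPM.

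The label of the population rests on 6 genes. Cx3cr1 (ENSMUSG00000052336, chr9:119901616-120069879, minus strand) and Trem2 (ENSMUSG00000023992, chr17:48346401-48354147, plus) were part of the rule and only describe it. Cx3cr1 stood at 254, 572, 505 and 364 CPM against 45.8, 105, 85.8 and 98.0 CPM in the other cells with at least 1 UMI each of Csf1r and Ptprc. These other cells, 801, 329, 147 and 262 in the libraries, included further macrophages, the counterparts below among them, as well as monocytes and dendritic cells. Trem2 stood at 270, 158, 182 and 348 CPM against 76.8, 82.8, 68.9 and 101 CPM. Both transcripts were found together in 70 of the 107 cells, Cx3cr1 alone in 17 and Trem2 alone in 20.

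Of the 4 label genes that the rule did not use, Ccl12, Ccl4 and Sdc4 were higher than in the other Csf1r and Ptprc cells in all 4 libraries. Ccl12 (ENSMUSG00000035352, chr11:82101845-82103400, plus), a ligand of the monocyte chemokine receptor CCR2, stood at 401, 478, 1121 and 664 CPM against 167, 228, 255 and 370 CPM. The counting intervals of the macrophages were 351 to 456 for the lowest and 889 to 1396 for the highest library, the latter from 7 cells. They cover counting error only and are no test against the other cells. Ccl4 (ENSMUSG00000018930, chr11:83662584-83664683, plus), a chemokine of activated macrophages, stood at 1271, 3814, 2985 and 2092 CPM against 572, 1016, 347 and 744 CPM. A single cell held 83.6% of the Ccl4 UMIs of the high-fat Nrf2flox/flox library. The mean log2 ratio over the 4 libraries was 1.33 ± 0.57 (SD, n = 4) for Ccl12 and 1.91 ± 0.85 for Ccl4.

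Sdc4 (ENSMUSG00000017009, chr2:164424247-164443887, minus), a cell-surface heparan sulfate proteoglycan, stood at 592, 762, 575 and 1238 CPM against 295, 425, 196 and 373 CPM, a mean log2 ratio of 1.28 ± 0.43. All 4 values of Sdc4 lay above every value in the other cells. Nlrp3 (ENSMUSG00000032691, chr11:59541568-59566956, plus), the sensor of an inflammasome that matures interleukin 1 beta, stood at 446, 332, 505 and 838 CPM against 220, 342, 235 and 228 CPM. Its ratio was above 0 in 3 of 4 libraries, with a mean of 0.99 ± 0.79, and in the standard-diet Nrf2Cdh5tKO library the levels were nearly the same.

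The same 4 label genes were read against 2 kinds of macrophage that share most of the rule. Lyve1-positive counterparts met the same limits on Csf1r, C1q and the genes of other lineages but held Lyve1 (343, 185, 50 and 128 cells), with no condition on Cx3cr1 and Trem2. Acp5-positive counterparts met the whole rule except that they held Acp5, which encodes a phosphatase of osteoclasts and some macrophages (20, 10, 5 and 13 cells). Ccl12 stood at 330, 419, 1202 and 804 CPM in the Lyve1-positive cells, a mean log2 ratio of 0.02 ± 0.26, and at 310, 105, 35.2 and 475 CPM in the Acp5-positive cells, a ratio of 1.94 ± 2.05 that was above 0 in all 4 libraries but varied widely. For Nlrp3 and Sdc4 the ratios to the Lyve1-positive cells were 0.62 ± 0.85 and 0.58 ± 0.27, and to the Acp5-positive cells 0.00 ± 0.83 and 0.39 ± 0.77. Ccl4 was higher than in the Lyve1-positive cells (1.95 ± 1.34) but not than in the Acp5-positive cells (−0.10 ± 0.56), which held 2156, 2628, 3726 and 1888 CPM. Higher in all 4 libraries by a mean of at least 1 were thus Ccl12, Ccl4 and Sdc4 against the other Csf1r and Ptprc cells, Ccl4 against the Lyve1-positive cells and Ccl12 against the Acp5-positive cells.

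Shares of the cells are given for each library. Of all kept cells they made up 0.646% (0.482 to 0.849), 0.808% (0.518 to 1.20), 0.686% (0.276 to 1.41) and 1.10% (0.715 to 1.62). Of the cells with Csf1r and at least 20 C1q UMIs they made up 7.89% (5.93 to 10.2), 7.89% (5.12 to 11.5), 7.87% (3.22 to 15.5) and 9.96% (6.55 to 14.4). Without the cell with T cell markers, the high-fat Nrf2flox/flox shares were 0.589% and 6.82%. All counting intervals within a denominator overlapped, and with 1 pool per condition the shares were not tested between diets or genotype labels.

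**Figure D1:**
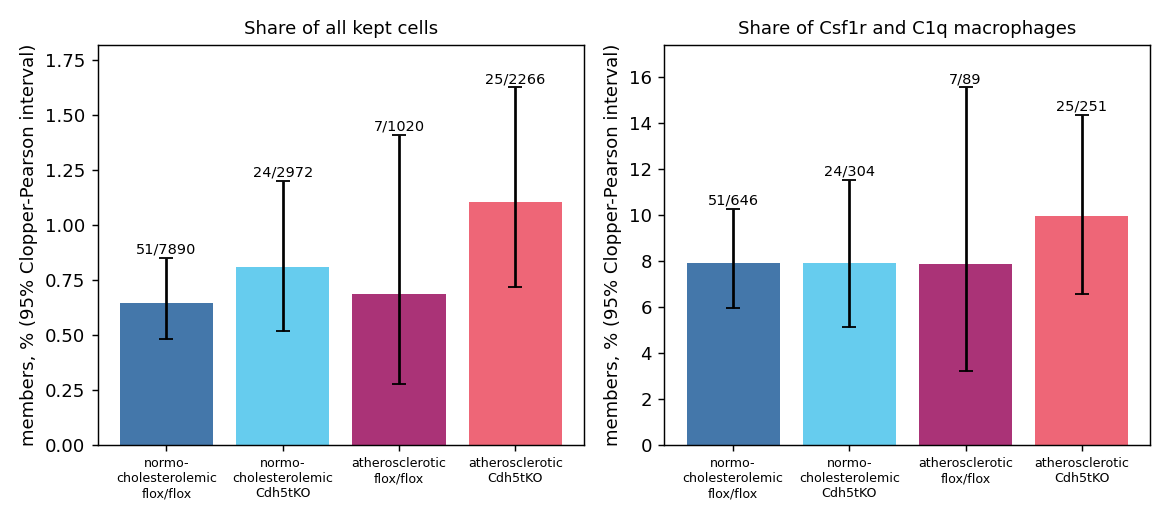
Share of Cx3cr1 and Trem2 Lyve1-negative macrophages (the members on the axis, in percent) among all kept cells (left) and among cells with Csf1r and at least 20 C1q UMIs (right) in the 4 libraries. Bars are the share in 1 library, error bars its 95% Clopper-Pearson interval and the numbers above them cells over all cells; the intervals overlap in both panels.

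Many cells lay near the limit on Cx3cr1 and Trem2, and few near that on C1q. The sum of Cx3cr1 and Trem2 was 2 UMIs in 26 cells and 3 in 18, with a median of 5 and a maximum of 25. Another 83 cells missed the rule only because that sum was 0 (50 cells) or 1 (33 cells). The C1q sum had a median of 143 and was 20 to 24 in 1 cell, while 2 cells failed at 15 to 19. A single Lyve1 UMI kept out 20 cells, and 278 failed by Lyve1 alone.

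Against the other Csf1r and Ptprc cells, the macrophages held more of single genes such as Ccl4, Cxcl16, Cd72 and Nes, and less of the monocyte and neutrophil genes as groups. A gene was taken as past the fold when its mean log2 ratio over the 4 libraries was at least 1 in size, its sign was the same in all 4 and both populations together held at least 50 UMIs. Of 11140 genes with enough UMIs outside the rule, 112 (1.01%) were past the fold higher and 1666 (15.0%) lower. The median ratio of all these genes was −0.48, and among the 1635 genes of at least 100 CPM it was −0.048, with 41 higher and 95 lower. Leaving out the cell with T cell markers gave 113 higher and 1856 lower, of which 90 and 1628 were shared. Of the 12 tested pan-macrophage genes outside the rule, Ms4a7, Cd14 and Aif1 were higher and none lower.

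Nes, the gene of the intermediate filament nestin, had the largest ratio of the genes of at least 100 CPM, with 78.8, 134, 182 and 44.5 CPM and a mean log2 ratio of 2.66 ± 1.35. Pdgfb, which encodes a growth factor for smooth muscle cells and pericytes, followed with 73.5, 150, 168 and 178 CPM and 1.97 ± 0.46. Basp1, which encodes a membrane-bound signalling protein, stood at 677, 438, 939 and 469 CPM against 115, 155, 260 and 160 CPM, a ratio of 1.86 ± 0.49. The ratios of Pdgfb and Basp1 varied less over the 4 libraries than that of Nes, which was lowest in the high-fat Nrf2Cdh5tKO library.

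Among the surface proteins, Cd72, a receptor best known as an inhibitory coreceptor of B cells, stood at 319, 203, 140 and 259 CPM against 59.2, 58.4, 59.9 and 68.4 CPM, a ratio of 1.84 ± 0.50. Lilra5, an activating immunoglobulin-like receptor, stood at 196, 272, 140 and 202 CPM against 60.4, 79.2, 31.1 and 77.7 CPM (1.75 ± 0.32). For both genes the lowest library of the macrophages lay above the highest of the other cells. The remaining named genes were St3gal6 (1.62 ± 0.77), a sialyltransferase, Lpcat2 (1.56 ± 0.43), an enzyme of platelet-activating factor synthesis, Cited2 (1.52 ± 0.60), a transcriptional coregulator, and Tgfbr1 (1.50 ± 0.76), a receptor for TGF-beta. Against the Acp5-positive counterparts St3gal6 alone of these genes was past the fold higher (1.24 ± 0.92). Cd72 was lower there (−1.10 ± 0.31), and the ratios not past the fold were 0.14 ± 1.73 for Nes, 0.11 ± 0.70 for Pdgfb, −0.44 ± 0.31 for Basp1, −0.14 ± 0.31 for Lilra5, −0.50 ± 0.45 for Lpcat2, 1.11 ± 0.84 for Cited2 and −0.59 ± 0.69 for Tgfbr1.

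Chemokine genes differed in direction within the family. Of 10 CC chemokine genes tested, Ccl3, Ccl4 and Ccl12 were higher and Ccl6, Ccl8 and Ccl24 lower, with a median of −0.39. Ccl3 (chr11:83647844-83649355, minus), a chemokine related to Ccl4, stood at 567, 1005, 350 and 672 CPM against 329, 258, 110 and 199 CPM, a ratio of 1.54 ± 0.52. Of 10 CXC chemokine genes, Cxcl14 and Cxcl16 were higher and Cxcl3 and Cxcl12 lower. Cxcl16, a membrane-bound ligand of CXCR6 and a scavenger receptor for oxidized lipoprotein, stood at 504, 539, 505 and 441 CPM against 146, 150, 128 and 174 CPM. Its ratio of 1.74 ± 0.27 varied little over the libraries. To the Acp5-positive counterparts the ratios of Ccl3 and Cxcl16 were −0.01 ± 0.62 and −0.30 ± 0.45, neither past the fold. The neutrophil attractant gene Cxcl2 was the most abundant of these chemokines, with 7587, 8448, 7106 and 10481 CPM, but its ratio was 0.58 ± 0.25.

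Groups of regulatory and inflammatory genes were not past the fold as a whole. Of 14 NF-kappaB feedback genes tested, none was higher or lower (median 0.05), and of 21 immediate early and stress genes only Hspa1a was higher (median 0.18). Of 15 inflammasome and cytokine genes, none was higher, while Il6 and Csf1 were lower, where 15.0% of all genes were lower. Without the cell with T cell markers Il1rn was also past the fold lower (−2.37 ± 3.27, against −0.23 ± 1.09 with it). Il1b, which encodes interleukin 1 beta, stood at 2297, 1763, 2635 and 1449 CPM against 873, 933, 1434 and 1243 CPM, a ratio of 0.85 ± 0.48. Of the 5 genes the study used for proinflammatory macrophages, Sdc4, Cxcl16 and Ccl3 were higher. Against the Lyve1-positive cells only Cxcl16 of that list was higher, and against the Acp5-positive cells only Cxcl1. The study marked cells of these same samples with that list.

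Of 12 microglia-type genes tested, 2 were higher and 2 lower, where 1.01% of all genes were higher and 15.0% lower. Cd83, a maturation marker of antigen-presenting cells, was among the former and stood at 1579, 1317, 1163 and 1659 CPM (1.20 ± 0.30). Defining microglial genes were scarce, with 30 UMIs of Tmem119, 41 of P2ry12 and 0 of Sall1 in all 107 cells.

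Among genes of at least 100 CPM, those furthest down were genes of neutrophils and monocytes, which the other Csf1r and Ptprc cells include. Lcn2, a siderophore-binding protein of neutrophil granules, had 0 UMIs against 1572. With the UMIs of all libraries pooled it was at least 31.6-fold lower. S100a8 (−7.87), Retnlg (−7.83) and Camp (−7.57), also neutrophil products, were low, as were the monocyte genes Plac8 (−7.78), Ly6c2 (−7.45) and Chil3 (−7.14) and the protease inhibitor gene Slpi (−7.43). All 5 neutrophil genes and 8 of 9 monocyte genes tested were lower, with medians of −7.57 and −4.50. The exception, Ccr2, the receptor of Ccl12 and Ccl2, stood at 193, 44.6, 575 and 239 CPM against 235, 196, 617 and 313 CPM. Its value in the high-fat Nrf2flox/flox library was 199 CPM without the cell with T cell markers, and it too was then past the fold lower (−1.11 ± 0.91, against −0.73 ± 0.94 with it).

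**Figure D2:**
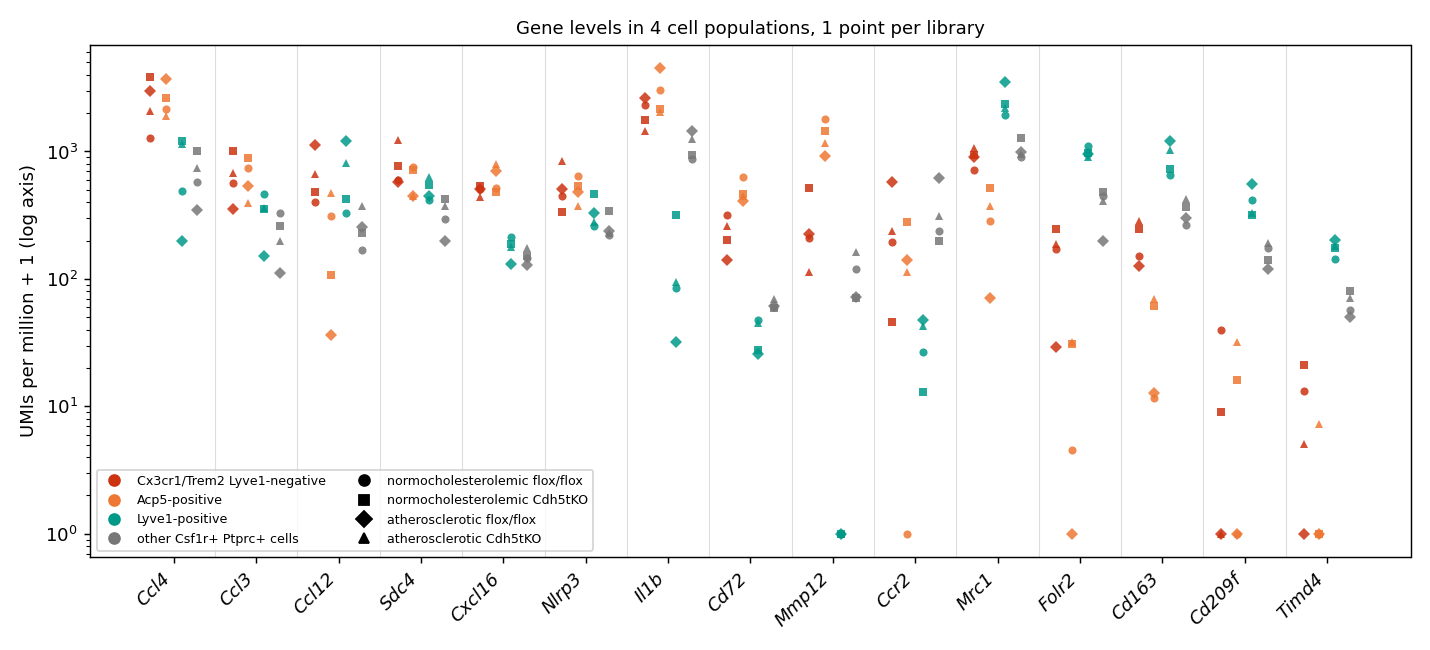
Levels of 15 genes in CPM plus 1 (log axis) in the Cx3cr1 and Trem2 Lyve1-negative macrophages, their Acp5-positive and Lyve1-positive counterparts and the other Csf1r and Ptprc cells. Each point is 1 library, its colour the population and its shape the library; Cxcl16 and Cd72 sit well above the Lyve1-positive cells in every library, and Mrc1, Folr2 and Cd163 well below them.

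Against the Lyve1-positive counterparts, the cells held less of the resident macrophage genes and more of the MHC class II genes. Past the fold were 183 of 8417 genes higher (2.17%) and 819 lower (9.73%), around a median of all genes of −0.28. The counts were 167 and 893 without the cell with T cell markers. Of 13 resident macrophage genes apart from Lyve1, 12 were lower and none higher, with a median of −2.19. Folr2, a folate receptor, stood at 172, 243, 28.0 and 186 CPM against 1104, 973, 962 and 904 CPM (−2.98 ± 1.36), and Mrc1, the mannose receptor, at 718, 936, 897 and 1056 CPM against 1935, 2378, 3476 and 2194 CPM (−1.44 ± 0.37). The scavenger receptor gene Cd163 (−2.19 ± 0.74), F13a1 (−2.44 ± 0.70), Gas6 (−1.98 ± 0.36) and the transcription factor gene Maf (−1.52 ± 0.37) went the same way. Pf4, a platelet-type chemokine of resident macrophages, was the gene not past the fold, with 2346, 2197, 1906 and 1696 CPM and −0.84 ± 0.37.

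The resident programme was lower but not absent. The summed level of the resident genes was 4616, 5772, 4079 and 5180 CPM, against 15463, 14468, 17197 and 14912 CPM in the Lyve1-positive cells and 1799, 2319, 363 and 3145 CPM in the Acp5-positive cells. In every library the cells thus lay between the 2 counterparts. Against the Acp5-positive cells, 133 of 4304 genes were past the fold higher (3.09%) and 72 lower (1.67%), and of the 9 resident genes tested 8 were higher and none lower.

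Among genes of at least 100 CPM, Ednrb, which encodes an endothelin receptor, was furthest down (1 UMI against 1198, −7.57 ± 1.46). Next were the C-type lectin genes Cd209f (−6.25 ± 2.39), Cd209g (−5.92 ± 2.00) and Cd209d (−5.78 ± 0.95), near copies of each other whose reads could be split between them. The chemokine genes Ccl8 (−4.97 ± 2.88) and Ccl24 (−4.36 ± 2.16), Timd4, a receptor for phosphatidylserine on dead cells (−4.53 ± 1.52), and the gelatinase gene Mmp9 (−4.31 ± 1.52) followed. Of 13 efferocytosis and scavenger genes, 7 were lower (Mertk, Gas6, Timd4, Stab1, Cd36, Colec12 and Pros1) and 2 higher (Axl, 1.79 ± 0.49, and Havcr2, 3.33 ± 0.64). Axl and Mertk, sister receptors of dead-cell uptake, thus lay on opposite sides.

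Among genes of at least 100 CPM, Mmp12, the macrophage elastase, was furthest up, with 291 UMIs against 0. Its level was 208, 519, 224 and 113 CPM, where a floor of 3 UMIs in the Lyve1-positive cells was 0.861, 2.09, 9.25 and 3.21 CPM. The Acp5-positive cells held 1796, 1438, 914 and 1157 CPM. Il1b stood at 84.3, 319, 30.8 and 94.2 CPM in the Lyve1-positive cells, so that its ratio was 4.37 ± 1.60. Of the 14 inflammasome and cytokine genes tested, 4 were higher (Il1b, Il1a, Il1rn and Ptgs2) and 1 lower (Gdf15), with a median of 0.36. Il1rn had 0 UMIs in the high-fat Nrf2flox/flox library without the cell with T cell markers, and its ratio was then 0.96 ± 2.54 and not past the fold. Further named genes were Gngt2 (3.95 ± 0.58), a G protein subunit, Tnip3 (3.92 ± 2.89), an inhibitor of NF-kappaB signalling, and Nes (3.89 ± 1.88). They also included the collagenase gene Mmp13 (3.52 ± 1.41), Cytip (3.51 ± 0.96), Rgs1 (2.94 ± 0.71), Ccr2 (2.70 ± 0.72) and Cd72 (2.65 ± 0.23). Bcl2a1a (4.21 ± 2.55) and Bcl2a1d (2.92 ± 0.81) are near-identical survival genes whose reads cannot be told apart with certainty. Leaving out the cell with T cell markers gave 3.48 ± 2.04 for Tnip3, 3.92 ± 2.27 for Bcl2a1a, 3.21 ± 0.93 for Cytip and 2.32 ± 0.47 for Ccr2, all still past the fold.

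Most MHC class II genes, which serve antigen presentation, were higher than in the Lyve1-positive cells, and the median of the list was below 0 against the Acp5-positive cells. Of 7 MHC class II genes tested, 5 were higher and none lower (median 1.08). Cd74, the invariant chain, stood at 24069, 19482, 20099 and 19084 CPM against 12042, 8599, 9036 and 9522 CPM, a ratio of 1.08 ± 0.10, and H2-Aa and H2-Ab1, chains of the class II molecule, had ratios of 1.01 ± 0.04 and 1.22 ± 0.17. In all 4 libraries Cd74 was about as much higher. Against the Acp5-positive cells only Ciita, the class II transactivator, was past the fold, and it was lower (list median −0.51).

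Lipid genes were split. Apoe, the apolipoprotein of macrophage cholesterol export, stood at 10728, 13596, 6504 and 11108 CPM and was lower than in the Lyve1-positive cells (−1.04 ± 0.54). Of 16 lipid-associated genes tested, 4 were higher (Lpl, 1.56 ± 0.77; Cd9, 2.24 ± 0.71; Lgals3, 1.28 ± 0.66; Mmp12) and 3 lower (Apoe, Fabp4 and Cd36). Genes typical of foam cells were scarce, with 3 UMIs of Gpnmb, 46 of Spp1 and 19 of Fabp5 in the 107 cells. Against the Acp5-positive cells Lgals3 was lower (−2.12 ± 1.57), and of 12 cholesterol handling genes Abcg1, Soat1 and Nceh1 were lower and Pltp higher. Against the Lyve1-positive cells Abcg1 and Pltp lay on the other side, since of 15 such genes Abcg1 and Ch25h were higher and Npc1 and Pltp lower. Of all genes, 2.17% were higher and 9.73% lower there.

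Other immune groups differed less evenly. Of 10 complement genes, 5 were lower than in the Lyve1-positive cells and none higher (median −1.64). Of 18 interferon-stimulated genes 2 were lower, near the 9.73% of all genes lower in that comparison. Against the Acp5-positive cells, the complement genes C3 and C4b, the chemokine genes Ccl2 and Ccl12 and 4 immediate early or stress genes (Jund, Klf4, Hspa1a and Hspa1b) were higher. The 4 genes of the intima macrophage list of the study other than Acp5 were 3 of 4 higher than in the Lyve1-positive cells (Cd72, Ccrl2 and Mpeg1) and 1 of 4 lower than in the Acp5-positive cells (Cd72, −1.10 ± 0.31, and −0.98 ± 0.16, not past the fold, without the cell with T cell markers).

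**Figure D3:**
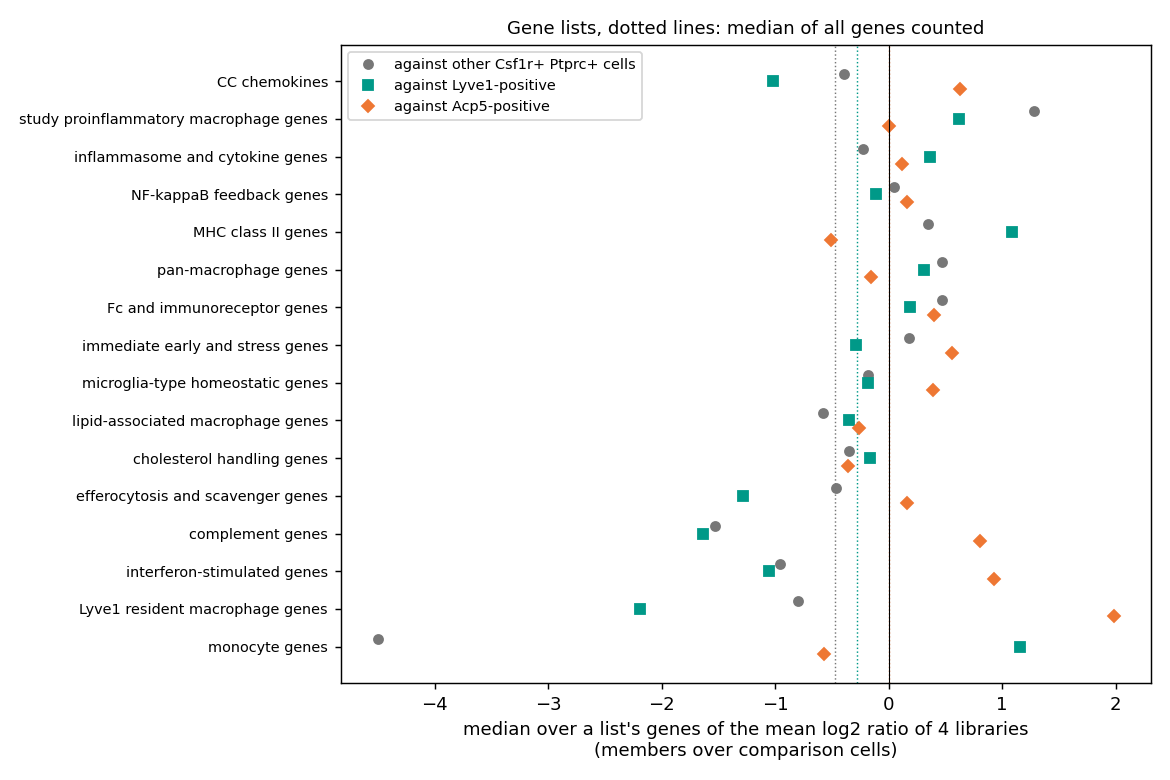
Median log2 ratio of fixed gene lists between the Cx3cr1 and Trem2 Lyve1-negative macrophages and 3 other populations, each symbol 1 comparison and the dotted lines the median of all genes counted in it. The resident macrophage list lies at −2.19 against the Lyve1-positive cells and at 1.98 against the Acp5-positive cells, and the MHC class II list at 1.08 and −0.51.

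Transcripts of other cell types were measured in the same cells. The 8 fibroblast genes summed to 1497, 851, 322 and 1768 CPM, with Gsn, an actin-severing protein that is not particular to fibroblasts, most abundant and Pdgfra at 0 by the rule. The 6 smooth muscle genes summed to 415, 272, 266 and 405 CPM, led by Acta2, and the 6 endothelial genes to 24.5, 16.2, 0 and 0 CPM, with Cdh5 and Cldn5 at 0. A single cell held 288 of the 437 fibroblast UMIs of the high-fat Nrf2Cdh5tKO library, and another held 608 of the 866 UMIs of the cavity macrophage genes (led by Retnla) of the standard-diet Nrf2flox/flox library. The T cell genes summed to 28.0, 32.4, 1289 and 0 CPM, led by Trbc1, the third value being the single cell described above. The 5 B cell genes summed to 138, 324, 126 and 190 CPM, almost all of it Ighm, and the 5 neutrophil genes to 85.8, 8.11, 28.0 and 8.09 CPM, led by S100a9 with Mmp8 at 0. The part of these transcripts in the ratios above was not tested. Smooth muscle cells, which lack the macrophage genes, give a floor for free RNA: 1895 cells gated by Myh11 held 5.14 CPM of Ccl4, 0.396 of Cx3cr1, 0.561 of Trem2, 4.19 of Il1b and 6.76 of Cxcl16.

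The 107 cells were not alike. The sum of Ccl3 and Ccl4 had a median of 12.1 UMIs per 10000 of the cell and ran from 0.481 at the tenth percentile to 86.8 at the ninetieth, with 10 cells at 0. Il1b was 0 in 41 cells, with a median of 2.89 and a ninetieth percentile of 60.1. The resident genes had a median of 55.9, between 150 in the Lyve1-positive and 11.8 in the Acp5-positive cells, and the MHC class II genes a median of 388, against 91.6 and 620. In all 4 libraries the cells spread over more than 10 times in MHC class II level. A range of single cells is usually wider than that of library levels, so it does not measure the differences between libraries.

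**Figure D4:**
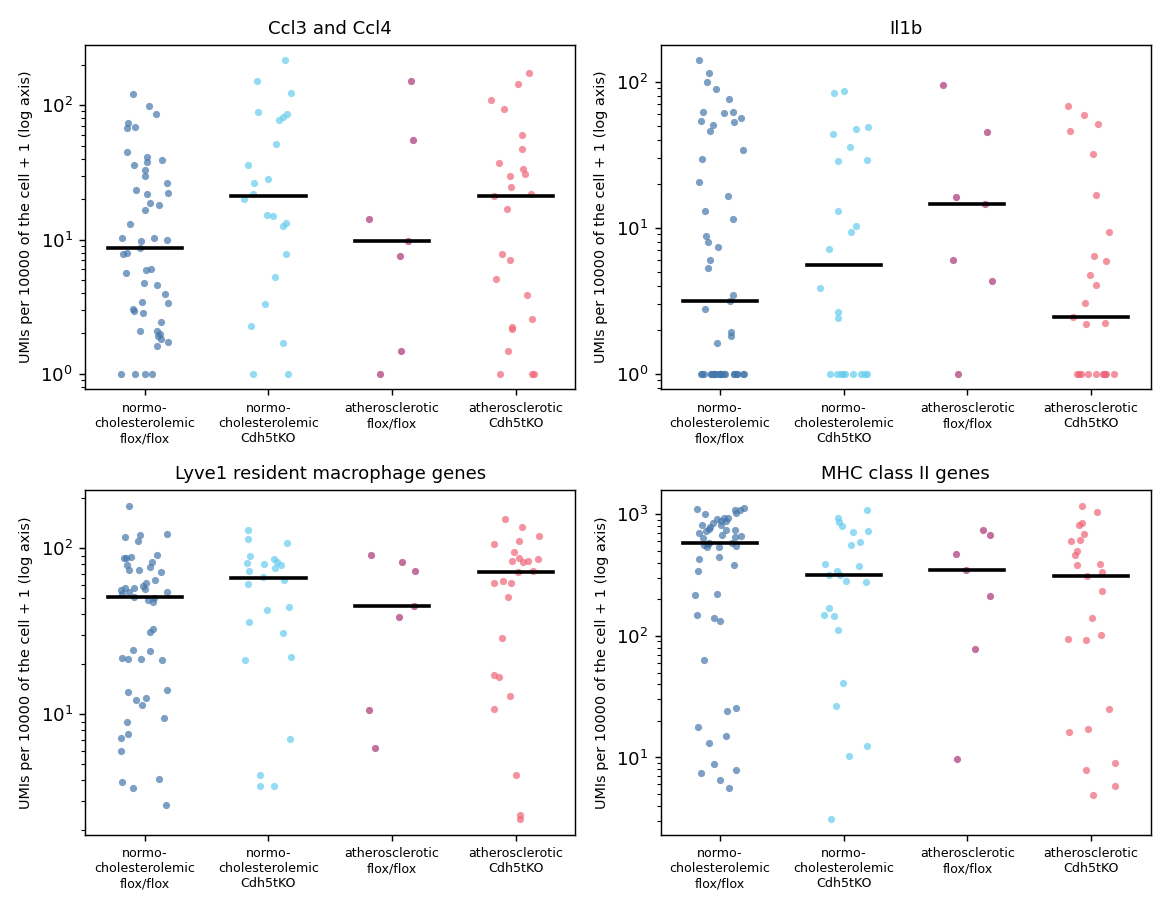
UMIs per 10000 of the cell plus 1 (log axis) of Ccl3 and Ccl4, Il1b, the resident macrophage genes and the MHC class II genes in each of the 107 macrophages, by library. Each point is 1 cell and the bar the median of the library; Il1b was at 0 in 41 cells, and the cells of every library spread widely in each panel.

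Folr2 and Il1b were read together in each cell. Of the 107 cells, 32 held Folr2 with fewer than 5 UMIs of Il1b, 32 held at least 5 UMIs of Il1b and no Folr2, 18 held both and 25 neither. In the standard-diet Nrf2Cdh5tKO library, 7 of the cells with Il1b at that level held Folr2 and 5 did not. In the Lyve1-positive cells the same 4 counts were 646, 3, 32 and 25 of 706, and in the Acp5-positive cells 5, 33, 1 and 9 of 48. The most frequent pattern of each counterpart, Folr2 alone or Il1b alone, was thus found in 32 cells each. These counts depend on depth, and cells without a Folr2 UMI may still express it.

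Cells with Cx3cr1 alone, Trem2 alone or both are described pooled over libraries, by a split that uses genes of the rule. Cells with Cx3cr1 alone numbered 3, 8, 2 and 4 in the libraries and those with Trem2 alone 13, 2, 0 and 5, so that class and library cannot be told apart. Their median depth was 9521 and 7759 UMIs, against 10340.5 in the cells with both. In the order Cx3cr1 alone, Trem2 alone and both, Mmp12 stood at 992, 30.3 and 147 CPM, Apoe at 6745, 13899 and 11540 CPM and Ccl4 at 2510, 1165 and 2219 CPM.

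Diet was compared within each genotype label, the high-fat over the standard-diet library. In the flox libraries 345 of 3935 genes with at least 20 UMIs had a log2 ratio of at least 1 (8.77%) and 689 of at most −1 (17.5%). In the libraries labelled Nrf2Cdh5tKO the counts were 210 (6.12%) and 200 (5.83%) of 3433. Of 3170 genes with enough UMIs in both pairs, 23 (0.726%) were higher and 41 (1.29%) lower in both, of which 11 and 14 had intervals that left out 0 in both pairs. When the cell with T cell markers was left out, 14 were higher, 10 of them shared, and 48 lower.

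Klf4, a zinc finger transcription factor, stood at 254, 474, 659 and 1364 CPM and was higher with the high-fat diet by 1.38 (0.87 to 1.86) in the flox and 1.52 (1.22 to 1.84) in the Nrf2Cdh5tKO-labelled pair on the log2 scale. Btg1, an antiproliferative gene, was higher by 1.31 and 1.46. Ccr2 was higher by 1.58 (1.02 to 2.11) and 2.42 (1.48 to 3.50) and Anxa1, the gene of the anti-inflammatory protein annexin A1, by 1.53 and 2.55. Without the cell with T cell markers, the flox ratio was 1.65 for Klf4, 0.94 for Btg1, 0.05 for Ccr2 and −0.29 for Anxa1. The higher Ccr2 and Anxa1 in the flox pair thus rested on that cell. The other named genes were Pabpn1 (1.71 and 3.11), Diaph2 (1.52 and 1.41), Fam174a (1.30 and 1.22) and Colgalt1 (1.64 and 1.21). Without that cell the flox ratios of Pabpn1 and Colgalt1 were 2.05 and 1.51, while those of Diaph2 (1.02, −0.71 to 2.41) and Fam174a (0.81, −0.73 to 2.06) had intervals that included 0.

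Among the named genes lower in both pairs, Mki67, Hist1h1b and Stmn1 are known from dividing cells and Hspa1b and Hsph1 from heat shock. A single cell held 133 of the 424 UMIs of the DNA replication and division genes in the standard-diet Nrf2flox/flox library, and another 88 of 223 in the standard-diet Nrf2Cdh5tKO library. Mki67, a marker of dividing cells, stood at 126, 195, 28.0 and 4.05 CPM, which is 2 UMIs against 72 and 1 against 48, with ratios of −2.17 and −5.59. Without the cell with T cell markers the flox ratio was −1.66 with an interval that included 0 (−4.74 to 0.24), and as a mean over cells, which weights each cell alike, it was 0.07. The histone gene Hist1h1b, with 1 against 57 and 0 against 27 UMIs, and Stmn1 (−4.15 and −1.80), a microtubule regulator of dividing cells, were low with it. Hspa1b, an inducible heat shock protein, stood at 492, 770, 70.1 and 166 CPM (−2.81 and −2.21), although 1 cell held 73.7% of its UMIs in the standard-diet Nrf2Cdh5tKO library. Without the cell with T cell markers, the flox intervals of Hist1h1b (−7.65 to 0.21) and Hsph1 (−7.44 to 0.44) also included 0. Hsph1, a cochaperone, had ratios of −2.61 and −1.77, and Runx3, a transcription factor, of −3.27 and −1.68.

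Il10, an anti-inflammatory cytokine, was found only in the standard-diet libraries, at 78.8 and 162 CPM, with 0 UMIs against 45 in the flox and 0 against 40 in the Nrf2Cdh5tKO-labelled pair. It was at least 1.87-fold and at least 13.4-fold lower. Cd207, the lectin langerin, stood at 320, 105, 0 and 8.09 CPM and was at least 7.62-fold lower in the flox pair and had a log2 ratio of −3.70 (−6.82 to −1.70) in the other. The 0 UMIs of the high-fat Nrf2flox/flox library came from 7 cells.

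The label genes did not share a direction with diet. Ccl12 was higher in both pairs, by 1.48 (1.10 to 1.86) and 0.47, while Ccl4 differed by 1.23 and −0.87, Nlrp3 by 0.18 and 1.33, Sdc4 by −0.04 and 0.70, Trem2 by −0.57 and 1.14 and Cx3cr1 by 0.99 and −0.65. In the flox pair without the cell with T cell markers, the ratio of Ccl12 was 1.95, of Ccl4 1.73, of Nlrp3 0.37, of Sdc4 0.01, of Trem2 −0.18 and of Cx3cr1 0.65 (−0.10 to 1.33). Another cell held most of the Ccl4 UMIs of the high-fat Nrf2flox/flox library, and both flox ratios of Ccl4 include that cell. All 7 fibroblast genes tested were lower in the flox pair, while in the Nrf2Cdh5tKO-labelled pair 2 of 5 (Col1a2 and Dcn) were higher and none lower (median 0.51). In the high-fat library of the latter pair, 1 cell held 288 of the 437 UMIs of that list. Interferon-stimulated genes were lower with the high-fat diet in the Nrf2Cdh5tKO-labelled pair for 8 of 11 (median −1.67), but 1 cell held 285 of the 970 UMIs of that list in the standard-diet library.

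**Figure D5:**
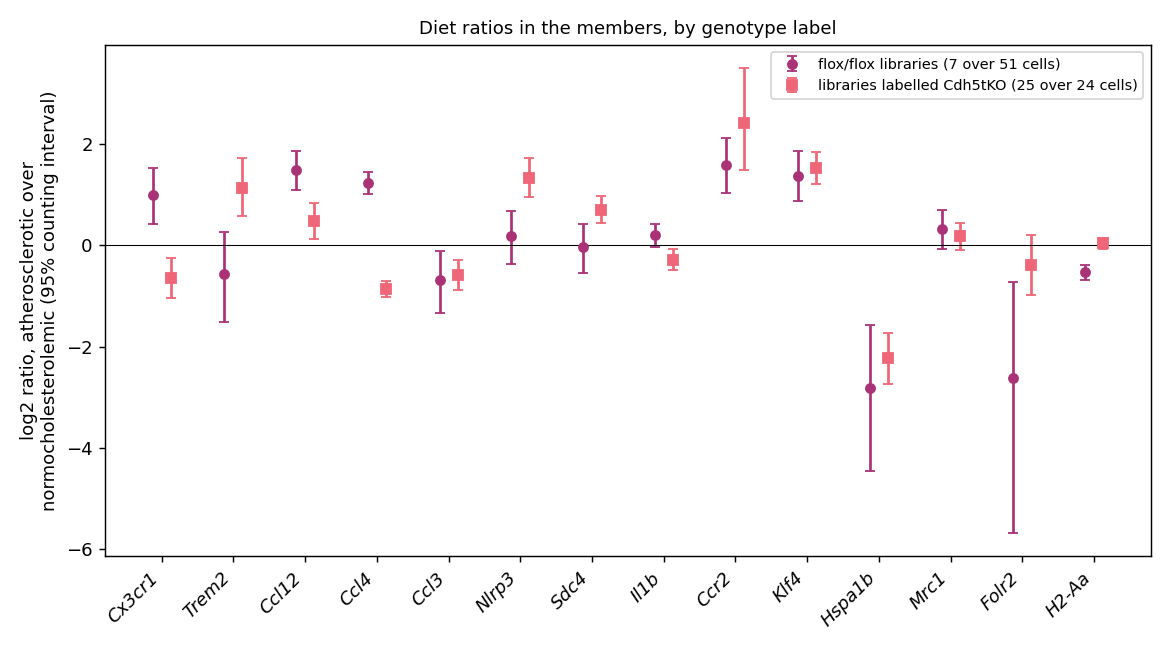
Log2 ratio of the high-fat over the standard-diet library for 14 genes in the Cx3cr1 and Trem2 Lyve1-negative macrophages (the members in the title). Circles are the flox pair (7 over 51 cells), squares the pair labelled Nrf2Cdh5tKO (25 over 24 cells) and bars 95% counting intervals; Klf4 lies above 0 and Hspa1b below 0 in both pairs, Ccr2 lies above 0 in both but at 0.05 in the flox pair without the cell with T cell markers, and Ccl4 and Cx3cr1 lie on opposite sides.

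The genotype label was compared within each diet, the Nrf2Cdh5tKO over the flox library, from the same 4 libraries. On the standard diet 306 of 4683 genes were past the fold higher (6.53%) and 311 lower (6.64%), and on the high-fat diet 251 (10.6%) and 161 (6.81%) of 2364. Of 2335 genes with enough UMIs in both pairs, 14 (0.600%) were higher and 13 (0.557%) lower in both, of which 2 and 12 had intervals that left out 0 in both pairs. Leaving out the cell with T cell markers, 13 were higher and 6 lower, 5 of the latter shared. As for diet, the overlap of the 2 pairs was not tested against that of unrelated pairs. Klf2, a transcription factor related to Klf4, stood at 299, 620, 196 and 409 CPM, higher by 1.05 and 1.06, and Cnot4, a subunit of the CCR4-NOT complex, was higher by 1.03 on the standard diet and held 20 UMIs against 0 on the high-fat diet, at least 1.92-fold higher. Klf2 belongs to the immediate early and stress genes, of which 6 of 20 were higher and none lower on the standard diet (Fos, Jun, Egr1, Ier2, Btg2 and Klf2, median 0.76) and 4 of 20 higher and 1 lower on the high-fat diet (median 0.14). That list summed to 15235, 26012, 18515 and 23892 CPM. In the high-fat Nrf2flox/flox library 1 of the 7 cells held 633 of its 1321 UMIs, so that the third value rests largely on that cell.

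Lower in both pairs were the following named genes. Vcam1, an adhesion molecule, stood at 224, 68.9, 266 and 89.0 CPM (−1.70 and −1.58), and Glipr1 at 396, 122, 196 and 52.6 CPM (−1.70 and −1.90). Without the cell with T cell markers, the high-fat ratios were −2.01 and −1.92. Clec4e, a receptor for mycobacterial lipid, was found in the standard-diet pair with 0 UMIs against 27, at least 3.89-fold lower, and had a ratio of −2.70 in the high-fat pair. Lfng, a glycosyltransferase of Notch, had ratios of −1.40 and −1.79. These 4 genes were lower in both pairs also without that cell.

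The other named genes lower in both pairs depended on the cell with T cell markers. Tnip3 stood at 436, 122, 715 and 134 CPM (−1.84 and −2.42) and Bcl2a1a at 249, 85.1, 210 and 64.7 CPM (−1.55 and −1.70), and their high-fat ratios were −0.71 and −0.62 without it. For Ccr2 (−2.11 and −1.27) the high-fat ratio became 0.26. Il1rn, the interleukin 1 receptor antagonist, had ratios of −2.76 and −1.89, and without that cell the high-fat pair held 14 UMIs against 0.

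Nrf2 target genes showed no common direction by genotype label. On the standard diet, 21 of the 27 genes of the Nrf2 pathway list had enough UMIs, of which Hmox1, which degrades haem, was past the fold higher and Slc7a11, the cystine transporter, Txnrd1, a thioredoxin reductase, and Maff were lower. On the high-fat diet 14 had enough UMIs, and only Tkt, an enzyme of the pentose phosphate pathway, was past the fold, and higher. Of all genes, 6.53% were higher and 6.64% lower on the standard diet, and 10.6% and 6.81% on the high-fat diet. Nqo1, a classical Nrf2 target, had 0 UMIs in the 107 cells. Interferon-stimulated genes were higher in the standard-diet Nrf2Cdh5tKO library for 7 of 12 (median 1.35), the library in which 1 cell held 285 of 970 UMIs of the list. On the high-fat diet none of the 4 with enough UMIs was past the fold (median 0.08).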

How the data were processed

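The authors deposited whole counts of unique molecular identifiers per gene and cell barcode, not normalized, for 31053 genes. They were made from 10x Chromium 3′ libraries with Cell Ranger 6.1.2 on mm10, and the barcodes are those called as cells. The limits of 200 to 6000 genes and 15% mitochondrial UMIs removed 1451 of 15599 barcodes, and no annotation of the authors was used. The libraries held 98754487, 43717402, 12276546 and 24184211 UMIs.

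Counts were summed over a population in each library and scaled to CPM. Ratios between populations were formed within each library, with 0.5 UMI added in proportion to depth, and averaged over the 4 libraries. Ratios between libraries have exact binomial intervals. Folds against 0 UMIs use a floor of 3 UMIs, with the UMIs of all libraries pooled for Lcn2. There being 1 pooled library per condition, no p-value was computed. Genes of the rule were left out of counts between populations, but not of the counts of gene lists between libraries. Named genes were the 12 with the largest positive and the 8 with the largest negative ratio past the fold, of at least 100 CPM in the higher population, for the other and the Lyve1-positive cells. Up to 8 in each direction were named for diet and genotype label, past the fold in both pairs with intervals that left out 0, beside 41 gene lists. The cells and the lists were chosen with earlier results of these data known. Doublets were called with Scrublet in scanpy 1.11.5 and kept. The scripts were tested on simulated data. Alternatives were a stricter rule, minimum UMIs, other scalings, thinning of cells, doublet removal and leaving out each library. Gene positions are from GENCODE M21. The software was numpy 2.4.6, pandas 2.3.3, scipy 1.17.1 and matplotlib 3.10.9 under Python 3.11.15. Some genes are not reported here.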

Additional observations from a re-analysis of the deposited data

Results flagged for a closer look

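Some genes of the Cx3cr1 and Trem2 Lyve1-negative macrophages had opposite signs in the 2 pairs of libraries of a contrast. Each pair is 1 library against 1, so the difference between the pairs was not tested. For diet, the log2 ratios in the flox pair and the pair labelled Nrf2Cdh5tKO were 1.23 and −0.87 for Ccl4, 1.0 and −0.65 for Cited2, 0.99 and −0.65 for Cx3cr1, and 1.21 and −1.59 for Nes. For the genotype label, the ratios on the standard and the high-fat diet were 1.59 and −0.51 for Ccl4, 1.32 and −0.98 for Mmp12, 0.76 and −2.03 for Nes, −0.43 and 0.73 for Nlrp3, and −0.77 and 0.93 for Trem2. A single cell held 83.6% of the Ccl4 UMIs of the high-fat Nrf2flox/flox library, which enters both contrasts. That cell was not the one with T cell markers, and all Ccl4 ratios given include it. When the cell with T cell markers was left out of that library, the diet ratios in the flox pair were 1.73 for Ccl4, 1.21 for Cited2, 0.65 (−0.10 to 1.33) for Cx3cr1 and 1.60 for Nes. The ratios by label on the high-fat diet were then −1.01 for Ccl4, −1.49 for Mmp12, −2.42 for Nes, 0.54 (−0.03 to 1.15) for Nlrp3 and 0.54 (−0.33 to 1.55) for Trem2. Each kept its sign, but the 95% counting intervals of Cx3cr1, Nlrp3 and Trem2 then included 0. The ratios for Cx3cr1 and Trem2 are of genes that chose the cells.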

How the results depend on the processing

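No paired analysis was possible because each group is 1 library, and no interval given covers the spread between mice. The 7 cells of the smallest library limit the depth of every ratio it enters. Of 56 share values under alternatives, 54 stayed within the counting interval. With at least 3 UMIs of Cx3cr1 and Trem2, the share in the standard-diet Nrf2flox/flox library was 0.469% of kept cells and 5.73% of Csf1r and C1q macrophages. Of 612 values of named genes between populations, none changed sign among the genes past the fold, and 602 moved by less than the SD. Part of this was fixed in advance. Leaving out 1 of the 4 libraries cannot turn the sign of a gene past the fold or move a mean by its SD. The minimum of UMIs does not enter these values.

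Counts of genes past the fold depended more on the settings. With no minimum beyond 1 UMI, 2645 genes were lower than in the other Csf1r and Ptprc cells, and 398 were higher and 221 lower than in the Acp5-positive cells. With 2 UMIs added, the latter were 82 and 43. The ratio of UMIs summed over libraries gave 470 genes lower than in the Lyve1-positive cells. Among genes of at least 100 CPM, an alternative added after seeing the data, 41 and 95 genes were higher and lower against the other cells, 67 and 138 against the Lyve1-positive and 50 and 26 against the Acp5-positive cells. Leaving out each library in turn gave 113 to 188 higher and 1633 to 2266 lower against the other cells, 159 to 226 and 678 to 1029 against the Lyve1-positive cells, and 97 to 175 and 56 to 127 against the Acp5-positive cells. The standard-diet Nrf2Cdh5tKO library (186 higher against the other cells and 127 lower against the Acp5-positive cells without it) and the high-fat Nrf2Cdh5tKO library (188 higher without it) moved a count by more than 1.5 times.

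With at least 10 UMIs over both libraries, 67 genes were higher and 132 lower with diet in both pairs, and 47 higher and 34 lower by genotype label. Without the cell with T cell markers, also added after seeing the data, 14 genes were higher with diet and 6 lower by genotype label. With 0.5 UMI added, the ratios of named genes past the fold that changed sign without it were those of Anxa1 for diet in the flox pair (−0.28) and of Ccr2 (0.26) and Il1rn (4.16, from 14 UMIs against 0) for the label on the high-fat diet. The diet ratio of Mki67 in the flox pair was 0.0742 as a mean over cells. The cause was not tested.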
